A study of Mus musculus with 40 samples.

Results

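Interferon response genes were followed in brown adipose tissue of mice given a Notch ligand blocking antibody pair, thyroid hormone, or both. The 9 genes were Ifi27l2a, Isg15, Ifit1, Ifit3, Oas1a, Irf7, Rsad2, Bst2 and Usp18. They were found by matching their symbols to the Ensembl identifiers of the count table, and each matched 1 of its 52636 rows. The set was chosen by the fall of Ifi27l2a with hormone at 7 d, so the hormone comparisons describe the values that selected it and are given without a p for these 9 genes. All 9 passed the filter on low counts, which left 17079 genes for testing.

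Brown adipose tissue RNA of 40 male C57BL/6 mice was sequenced, with 5 mice in each of 8 groups. Every mouse received 1 intraperitoneal antibody dose. In control mice it was an anti-ragweed isotype control at 40 mg/kg, and in Jag antibody mice a blocking pair against Jag1 and Jag2, each at 20 mg/kg. Jag1 and Jag2 are membrane ligands of the Notch receptors. Tissue was taken at 15 h, 5 d or 7 d, and at 7 d a further control group and a further Jag antibody group had received thyroxine (T4, 1 µg/g body weight) and triiodothyronine (T3, 0.05 µg/g) every day from day 2. The T3 and T4 combination is called hormone here. The series text gives an age of 10 to 12 weeks and the sample protocol 10 to 14 weeks. No group was left without an antibody, so a level without any injected antibody was not measured. Mouse numbers are those of the labels (control mice 1 to 5, Jag antibody mice 6 to 10 at each time), and equal numbers at different times are different animals.

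Library totals ran from 12217623 to 36511893 counts (median 18949808). Brown adipocyte markers, Ucp1 and Cidea among them, were counted in every group, with summed levels of 2055 to 31798 CPM (counts per 10 to the power of 6 library counts, after correction for library composition). Skeletal muscle markers varied from a sum of 0.878 CPM to 175926 CPM between mice. In bulk tissue, fewer cells of a type and less RNA per cell cannot be told apart.

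Interferons are secreted proteins that cells release on sensing viral nucleic acid or other danger signals. Type I interferons bind the Ifnar1 and Ifnar2 receptor and act through the kinases Jak1 and Tyk2 on a complex that holds Stat2 and Irf9. That complex binds the interferon-stimulated response element, and type II interferon acts on a different element, the gamma-activated site. The genes that follow encode antiviral effectors and feedback regulators. Brown adipose tissue is known for burning fuel for heat under the control of sympathetic nerves and thyroid hormone.

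The promoter sequences are shown for a motif that most of these genes share. RefSeq promoters (GRCm38.p6, 250 bases before to 50 bases after the start of a gene) were held for 7 of the 9 genes. Ifi27l2a and Usp18 had no entry. The core of the interferon-stimulated response element was searched as GAAANNGAAA on both strands, with overlapping matches counted separately. It was found in 6 of the 7 promoters, all but that of Irf7, and in 1131 of the 32851 promoters of all genes (3.44%). The windows below hold every match with 20 bases on either side, or fewer where the window meets the start. They are written 5′ to 3′ on the strand of the gene, with the matches in capitals, and a match on the opposite strand shows as the reverse complement of the core.
Isg15, chr4:156200855-156200916, minus strand: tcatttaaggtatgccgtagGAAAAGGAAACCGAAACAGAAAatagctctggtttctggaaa
Ifit1, chr19:34640765-34640833, plus strand: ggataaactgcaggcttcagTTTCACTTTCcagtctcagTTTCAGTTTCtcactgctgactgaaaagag
Ifit3, chr19:34583353-34583436, plus strand: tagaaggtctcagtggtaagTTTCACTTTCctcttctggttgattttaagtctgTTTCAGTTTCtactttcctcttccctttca
Oas1a, chr5:120907526-120907565, minus strand: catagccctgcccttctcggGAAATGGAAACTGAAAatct
Rsad2, chr12:26456543-26456592, minus strand: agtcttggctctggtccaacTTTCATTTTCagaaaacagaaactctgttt
Bst2, chr8:71537567-71537622, minus strand: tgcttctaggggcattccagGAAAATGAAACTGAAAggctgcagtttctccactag
Isg15 held 3 overlapping matches, Ifit1, Ifit3, Oas1a and Bst2 held 2 each, and Rsad2 held 1. The matches began 14 to 20 bases before the start in Oas1a and 122 to 156 bases before it in Ifit3, the nearest and the farthest of the set. The core of the gamma-activated site, searched as TTCNNNGAA, which reads the same on both strands, was found in the promoters of Oas1a and Bst2 and in 8.30% of all promoters. A match describes the letters and not binding, which was not measured.

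Ifi27l2a encodes a small membrane protein of the interferon-inducible Ifi27 family. The gene lies on the minus strand at chr12:103442167-103443680 (GRCm38, GENCODE M21) with 463 exonic bases. It had by far the highest level of the 9 per length, a mean of 1603 CPM per kilobase of exon over the 40 mice. Bst2 followed with 52.4 and Isg15 with 33.2 CPM per kilobase, and Oas1a was lowest with 2.51. Only 0.483% of its 50-base stretches, the length of the reads, occur in another gene, Ifi27l2b, which stayed at or under 1.16 CPM in every mouse.

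Without hormone, Ifi27l2a was lowest in control mice at 15 h, with 352, 327, 357, 332 and 372 CPM in mice 1 to 5. Jag antibody mice at 15 h had 880.2, 471, 539, 702 and 924 CPM in mice 6 to 10. Every Jag antibody mouse lay above every control mouse at 15 h, which was true in either direction of 2.48% of all genes tested. The difference was 1.02 on the log2 scale (SE 0.48, a 2.02-fold difference), but it did not pass the edgeR quasi-likelihood test with Benjamini-Hochberg adjustment over all genes (adjusted p = 0.373; unadjusted p = 0.0401), in which all 8 groups share 1 estimate of the spread.

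At 5 d the level was higher and the mice stood far apart. Control mice had 612, 1409.9, 973, 429 and 3333 CPM, and Jag antibody mice had 1779, 2629, 458, 1052 and 787 CPM. The slope of log2 CPM on gene length was 0.19, -0.38, -0.10, 0.04 and -0.45 in the libraries of these control mice. In those of the Jag antibody mice it was -0.17, -0.24, 0.21, -0.15 and 0.09. Ifi27l2a has 463 exonic bases, and the part of this slope in its spread was not tested. The antibody groups overlapped over most of their range at 5 d, with a log2 difference of -0.01 (SE 0.47, adjusted p = 0.993). From 15 h to 5 d Ifi27l2a rose in control mice by 1.96 on the log2 scale (SE 0.49, 3.89-fold, adjusted p = 0.00297), and the groups did not overlap, as was true of 10.4% of all genes. The same step was 0.93 (SE 0.48, adjusted p = 0.176) in Jag antibody mice, and there the groups overlapped. The rise in control mice was 1.01 with each library's trends on gene length and GC content removed, and its adjusted p was 0.0641 in a fit of only these 10 mice.

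At 7 d without hormone the levels of Ifi27l2a lay within the range of 5 d in all but 1 mouse. Control mice had 860.4, 916, 366, 2175 and 575 CPM and Jag antibody mice had 1198, 771, 1112, 968 and 1177 CPM. With hormone the control mice had 43.4, 60.9, 156, 162 and 81.8 CPM, and the Jag antibody mice 95.8, 125, 32.7, 36.6 and 58.6 CPM. Both hormone groups lay below all 30 mice without hormone, and the 2 hormone groups overlapped each other. The share of all genes that separate in this way was not counted. By edgeR 22.9% of all genes were called lower with hormone in control mice and 5.21% in Jag antibody mice. The fitted log2 difference of Ifi27l2a was -3.28 (SE 0.52, 9.69-fold) in control mice and -3.91 (SE 0.53, 15.0-fold) in Jag antibody mice. These are the values on which the genes were selected. With length and GC trends removed the difference in control mice was -2.07, and in Jag antibody mice -3.54; the slope of log2 CPM on gene length ran from -0.54 to -0.06 over the control libraries at 7 d and from 0.04 to 0.25 over those with hormone.

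**Figure D1:**
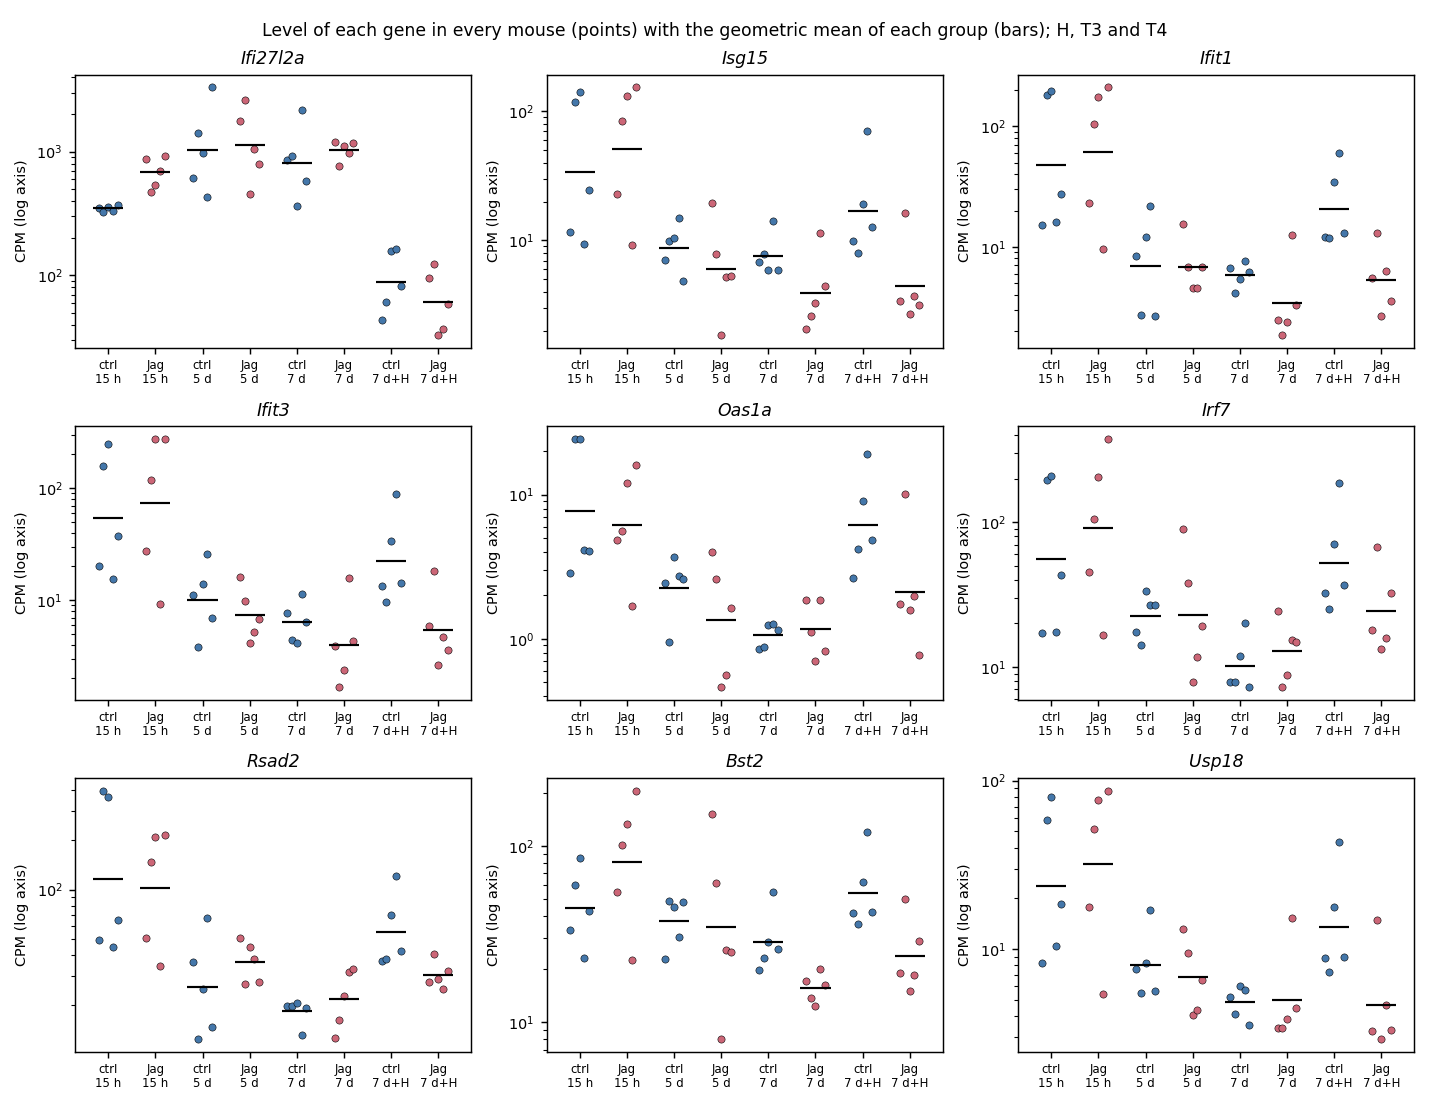
CPM on a log axis of the 9 genes in each of the 40 mice, by group (blue, control antibody; red, Jag antibodies; H, T3 and T4); points are mice and bars are group means of log2 CPM. Ifi27l2a sat between 32.7 and 162 CPM in the 10 hormone mice and at 327 CPM or more in the other 30, while the other 8 genes each had their highest group mean at 15 h.

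The cytoplasmic effectors followed another course. Isg15 is a ubiquitin-like protein that is attached to other proteins after interferon, and its gene lies at chr4:156199424-156200818. At 15 h its level was 11.6, 118, 139, 9.34 and 24.4 CPM in control mice 1 to 5 and 22.9, 83.8, 131, 9.17 and 153 CPM in Jag antibody mice 6 to 10. Mice of both antibody groups were found at about 9 CPM and above 100 CPM, and the groups differed by 0.40 on the log2 scale (SE 0.74, adjusted p = 0.939). At 5 d it was 7.01, 9.94, 10.5, 15.0 and 4.87 CPM in control mice and 19.4, 7.83, 1.85, 5.18 and 5.28 CPM in Jag antibody mice, and most of these values lay near or below the lowest mice at 15 h. The fall from 15 h to 5 d was -2.67 on the log2 scale in control mice (SE 0.79, adjusted p = 0.00973) and -3.34 in Jag antibody mice (SE 0.81, adjusted p = 0.00755).

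Ifit1 and Ifit3 encode proteins of the tetratricopeptide repeat family that restrain viral RNA, and lie on chromosome 19 at 34640871-34650009 and 34583531-34588731. Ifit1 was at 15.2, 182, 199, 16.2 and 27.4 CPM in control mice at 15 h and at 23.0, 106, 175, 9.62 and 213 CPM in Jag antibody mice. The same mice were high as for Isg15. Ifit1 fell from 15 h to 5 d by 3.19 in control mice (SE 0.81, adjusted p = 0.00341) and by 3.78 in Jag antibody mice (SE 0.83, adjusted p = 0.00365), to 2.68 to 21.7 and 4.56 to 15.5 CPM. For Ifit3 the log2 differences were -2.95 (SE 0.85, adjusted p = 0.00828) and -4.07 (SE 0.89, adjusted p = 0.00365), the latter the largest of any of the 9 genes in any comparison. Ifit3 is uncertain as a single gene, since 51.2% of its 50-base stretches also occur in Ifit3b, and Ifit3b itself fell by 2.92 and 3.88.

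Rsad2 encodes viperin, an enzyme that makes a chain-terminating nucleotide, at chr12:26442746-26456452. It had 49.8, 398, 366, 44.8 and 65.3 CPM in control mice at 15 h and 50.6, 148, 208, 34.4 and 215 CPM in Jag antibody mice. It fell from 15 h to 5 d by 2.57 in control mice (SE 0.55, adjusted p = 0.000997) and by 1.80 in Jag antibody mice (SE 0.54, adjusted p = 0.0243). Oas1a, a 2′-5′ oligoadenylate synthetase that activates RNA decay (chr5:120896256-120907521), was the gene of lowest level, at 0.462 to 24.4 CPM outside the 7 d groups. It fell by 2.26 (SE 0.69, adjusted p = 0.0112) and by 2.12 (SE 0.69, adjusted p = 0.0358). Oas1a shares 57.6% of its 50-base stretches with Oas1g and Oas1b, so its reads could be split between them.

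Bst2 encodes tetherin, a surface protein that holds budding virus on the cell, at chr8:71534255-71537456. It was the steadiest of the 8 genes, its highest mouse being 25.5 times its lowest. Control mice had 33.2, 60.0, 85.7, 23.1 and 42.9 CPM at 15 h and 22.7, 48.4, 45.1, 30.4 and 48.3 CPM at 5 d, and those groups overlapped. Its log2 difference from 15 h to 5 d was -0.33 in control mice (SE 0.52, adjusted p = 0.639) and -0.93 in Jag antibody mice (SE 0.53, adjusted p = 0.225).

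The regulators of the response moved with the effectors. Irf7, the transcription factor that amplifies type I interferon output (chr7:141262706-141266481), had 17.3, 197, 208, 17.4 and 43.0 CPM in control mice at 15 h and 45.6, 106, 206, 16.6 and 379 CPM in Jag antibody mice. It fell to 5 d by 2.02 in control mice (SE 0.75, adjusted p = 0.0352) and by 2.17 in Jag antibody mice (SE 0.76, adjusted p = 0.0492). Usp18, the protease that removes Isg15 from proteins and damps the receptor (chr6:121245906-121270917), fell by 1.99 (SE 0.66, adjusted p = 0.0185) and by 2.67 (SE 0.68, adjusted p = 0.00978). The call of Irf7 was made in 4 of 11 alternative settings in control mice and in 3 of 11 in Jag antibody mice. With the replicate block its adjusted p was 0.0627 and 0.0551 by edgeR, and with RLE scaling it was 0.0501 in Jag antibody mice. The call of Usp18 was made in 5 of 11 in control mice and in 10 of 11 in Jag antibody mice. Irf7 overlaps Phrf1 and Usp18 overlaps Gm44148 on the opposite strand, and reads of such partners cannot be told apart unless counting used the strand, which is not given in the sources used here.

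Between 15 h and 5 d, then, 7 of the 9 genes fell and 1, Ifi27l2a, rose in control mice, where 20.1% of all genes tested were called lower and 16.2% higher. In Jag antibody mice 7 of the 9 fell and none rose, against 6.24% and 8.22% of all genes. The median log2 difference of the 9 was -2.26 and -2.17, and that of all genes -0.01 and -0.02. The control count rested on the pooled spread: in a fit of only the 10 mice compared, none of the 9 was called (adjusted p 0.0641 to 0.0935 for the 8 genes; 8 of 9 at an unadjusted p under 0.05). That edgeR fit called 0 of 15305 genes of all kinds (5270 at an unadjusted p under 0.05), where the fit of all groups called 6214 of 17079 and DESeq2 on all groups 6953. The control count was 5 without control mouse 2 at 15 h and 5 without mouse 3. The count in Jag antibody mice was 4 without mouse 8 or mouse 10 at 15 h, and 4 without mouse 7, 9 or 10 at 5 d.

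**Figure D2:**
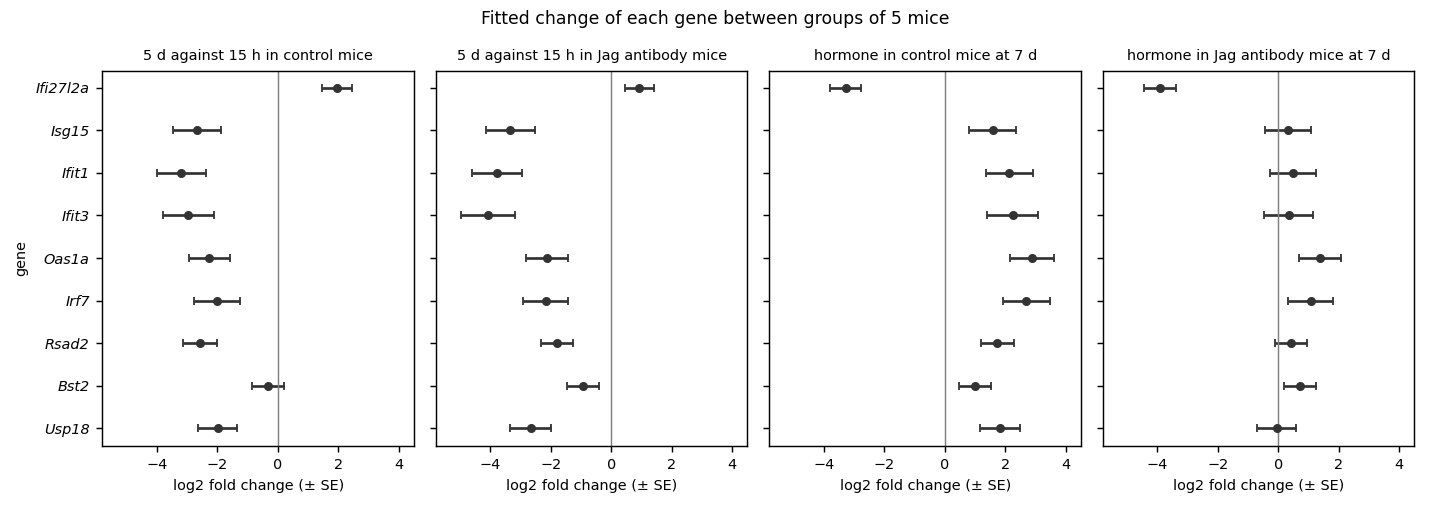
Fitted log2 fold changes of the 9 genes (horizontal, bars of 1 standard error, 5 mice a group) from 15 h to 5 d and with hormone at 7 d, for control and Jag antibody mice. From 15 h to 5 d the effectors and regulators lie between -0.33 and -4.07 and Ifi27l2a lies at 1.96 in control mice and 0.93 in Jag antibody mice; with hormone Ifi27l2a lies at -3.28 and -3.91.

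Markers of other cells changed over the same step. All 6 neutrophil and monocyte markers fell from 15 h to 5 d in control mice, from a sum of 24.0 to 3138 CPM to one of 14.6 to 68.4 CPM, and 4 of 6 fell in Jag antibody mice, from 31.6 to 194 CPM to 9.08 to 24.6 CPM. None of these 6 markers was at 0 throughout a group. All 5 red blood cell markers rose in control mice and 4 of 5 in Jag antibody mice. Macrophage markers changed less, with 1 of 7 called in each direction in control mice and none in Jag antibody mice. With a myeloid score (the mean log2 CPM of the macrophage, neutrophil and monocyte markers) as a covariate, 1 of the 9 genes was called in control mice, Ifi27l2a at 2.29, and 4 in Jag antibody mice. With that covariate 5149 of all 17079 genes were called in control mice (6214 without it) and 2600 in Jag antibody mice (2470 without it).

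Skeletal muscle markers in control mice went over this step from a sum of 2.86 to 11753 CPM (median 3.9) at 15 h to one of 1018 to 175926 CPM (median 23219) at 5 d, with 0 of 8 called by edgeR. In Jag antibody mice the sum was 2.29 to 2301 CPM at 15 h and 0.878 to 43.9 CPM at 5 d. With the log2 CPM of these 8 markers, averaged per mouse, as a covariate 6 of the 9 genes were called in control mice, beside 4239 of 17079 genes. Ifi27l2a was then at 1.43, and the calls of Irf7 (adjusted p = 0.0756) and Usp18 (adjusted p = 0.0793) were lost. The mean mitochondrial share of counts went from 23.5% to 13.8% in control mice, and the mean slope, over genes, of the log2 deviation from the mean of all libraries on log2 exonic length from 0.10 to -0.14. The part of these measures in the fall of the 7 genes was not tested beyond these fits.

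At 15 h the 8 genes and Ifi27l2a differed in their spread within a group. The mean log2 CPM of the 8 genes other than Ifi27l2a was 3.91, 6.79, 7.04, 3.86 and 4.72 in control mice 1 to 5 and 4.66, 6.10, 6.86, 3.33 and 7.20 in Jag antibody mice 6 to 10. Control mice thus spanned 3.18 log2 units in the 8 genes while Ifi27l2a spanned 0.19 log2 units in the same mice. At 7 d without hormone the order was opposite in control mice, with a span of 0.75 for the 8 genes and 2.57 for Ifi27l2a, but not in Jag antibody mice, at 1.67 and 0.64. The slope on gene length ran from -0.54 to -0.06 over those control libraries and from -0.16 to 0.03 over those Jag antibody libraries. Its part in these spans was not tested. Summed neutrophil and monocyte markers were 24.0, 3138, 594, 34.8 and 123 CPM in control mice 1 to 5 and 71.4, 31.6, 193, 62.4 and 159 CPM in Jag antibody mice 6 to 10. Control mice 2 and 3 were high in both measures, as were Jag antibody mice 8 and 10 within their group. Jag antibody mouse 7 had the lowest marker sum of its group with the 8 genes at 6.10. The part of these cells in the 15 h values was not tested.

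Over the 40 mice, which share groups, times and sequencing depth ranges, the 8 genes rose and fell together from mouse to mouse. Pearson's r of log2 CPM for their 28 pairs ran from 0.606 (Rsad2 and Bst2) to 0.985 (Ifit1 and Ifit3), with a median of 0.879. After the group means were removed the range was 0.447 to 0.970 (median 0.838). The 8 pairs with Ifi27l2a had r from -0.195 to 0.111 (median -0.055), and from -0.139 (Rsad2) to 0.550 (Bst2) with the group means removed. These values are descriptive and carry no test.

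**Figure D3:**
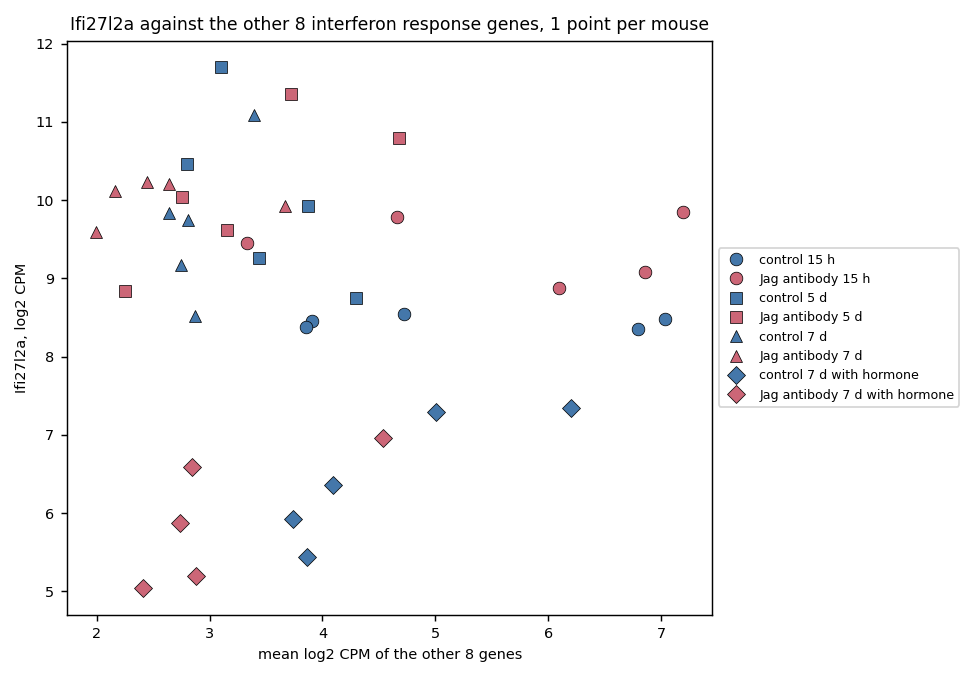
Log2 CPM of Ifi27l2a (vertical) against the mean log2 CPM of the other 8 genes (horizontal), 1 point per mouse, coloured and shaped by group. Control mice at 15 h form a flat line, 0.19 log2 units high and 3.18 wide, and the 10 hormone mice lie below the rest at every level of the 8 genes.

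Of 12140 genes with a mean log2 CPM of at least 1, those most like Ifi27l2a over the 40 mice were Tmem120a (Pearson r 0.914), Cmbl (0.893), Fam229b (0.890), Sctr (0.881) and Pla2g16 (0.867). The other 8 genes took ranks 4725 (Bst2) to 7240 (Oas1a) in that order. Since the 5 genes were picked by likeness, their hormone differences are a description: Tmem120a had -1.90 in control mice and -1.77 in Jag antibody mice, and Sctr, which encodes the secretin receptor, had -2.03 and -2.19. With the group means removed, which leaves only the spread within groups, the 5 most like genes were Gpx7 (0.891), Tmed3 (0.862), Camk1 (0.827), Snhg18 (0.823) and Crip1 (0.811), none of them among the first 5. The libraries of a group also differed in their slope on gene length, and its part in this likeness was not tested. The relative of Ifi27l2a named Ifi27, which no likeness selected, was at 1802 to 3662 CPM in control mice at 7 d and at 733 to 1081 CPM with hormone. It fell by 1.43 (SE 0.29, edgeR adjusted p = 0.000223) and in Jag antibody mice by 0.92 (SE 0.28, adjusted p = 0.0336), and from 15 h to 5 d in control mice it rose by 0.72 (SE 0.28, adjusted p = 0.0436).

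The antibody comparison asks whether blocking Jag1 and Jag2 changed these genes, and by edgeR none of the 9 was called at any time. At 15 h, where 1.14% of all genes were called, 2 of the 9 had an unadjusted p under 0.05, Ifi27l2a and Bst2 (log2 difference 1.08, SE 0.53, adjusted p = 0.411). Of all 17079 genes, 2052 had an unadjusted p under 0.05 in that edgeR fit. With the myeloid score as a covariate 7 of the 9 were under 0.05 unadjusted, beside 1222 of 17079 genes. Again 0 of the 9 were called. At 5 d, with 8.02% of all genes called, and at 7 d, with 2.50% called, no member had an unadjusted p under 0.05. The largest differences there were -0.57 (Ifit3, SE 0.80) at 5 d and -0.93 (Bst2, SE 0.53, adjusted p = 0.316) at 7 d. DESeq2 and limma on the deposited FPKM also called none of the 9 at these 3 times. Standard errors of the 27 differences ran from 0.47 to 0.82 on the log2 scale.

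With hormone at 7 d all 9 genes had lower fitted levels in Jag antibody mice than in control mice, from -0.53 (Ifi27l2a, SE 0.47) to -2.17 (Ifit3, SE 0.83). Ifit3 was at 13.5, 9.57, 33.6, 88.6 and 14.2 CPM in control mice and at 5.94, 18.4, 2.64, 4.69 and 3.58 CPM in Jag antibody mice. The groups overlapped for each of the 9 genes. None was called by edgeR, DESeq2 or limma, with 1.14% of all genes called by edgeR. Of the 8 genes other than Ifi27l2a, 5 had an unadjusted p under 0.05 (Isg15, Ifit1, Ifit3, Bst2 and Usp18; lowest adjusted p = 0.225, for Ifit1). Of all 17079 genes, 2026 were under 0.05 unadjusted by edgeR. The 8 genes rose and fell together from mouse to mouse, so the 5 are not separate results. The antibody by hormone interaction was negative for all 9, from -0.27 to -1.89, but no member was called or had an unadjusted p under 0.05 (adjusted p 0.406 to 0.886 for the 8 genes). DESeq2 and limma called none either, and by edgeR 0.00586% of all genes were called.

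In control mice the fitted values of the other 8 genes were higher with hormone, and 2 of them, Isg15 and Bst2, did not pass the test. Irf7 was at 7.84, 7.90, 12.0, 20.1 and 7.32 CPM without hormone and at 32.6, 25.1, 70.9, 188 and 36.8 CPM with it, a log2 difference of 2.69 (SE 0.78). Oas1a went from 0.854 to 1.27 CPM to 2.62 to 19.3 CPM (2.88, SE 0.73). Isg15 had 5.87 to 14.2 and 7.99 to 70.6 CPM, which overlap (1.58, SE 0.77). In this comparison 6 of the 9 genes were called higher (Ifit1, Ifit3, Oas1a, Irf7, Rsad2 and Usp18) and 1, Ifi27l2a, lower, beside 20.3% and 22.9% of all genes. Since the genes were chosen on this comparison, no more is read from the count. It was 4 without mouse 2 of the control mice at 7 d and 4 without mouse 4 of those with hormone, which had the highest level of all 8 genes in its group. Under the Jag antibodies 0 of the 9 were called higher and 1, Ifi27l2a, lower, beside 4.29% and 5.21% of all genes, and the differences of the other 8 lay between -0.06 (Usp18, SE 0.65) and 1.37 (Oas1a, SE 0.69).

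Markers of other cells also differed with hormone in control mice. Among 7 macrophage markers 6 rose, from a sum of 107 to 240.3 CPM to one of 353 to 737 CPM. All 4 endothelial markers rose, from 269 to 596 CPM to 671 to 969 CPM, and 2 of 6 neutrophil and monocyte markers rose. Of 7 brown adipocyte markers 5 fell, from 13959 to 31798 CPM to 5047 to 8921 CPM. In Jag antibody mice 1 of 7 macrophage markers rose (129 to 590.4 CPM against 252 to 892 CPM) and 3 of 7 brown adipocyte markers fell (6371 to 20466 CPM against 6632 to 9229 CPM). No marker of these lists was at 0 throughout a group. With the myeloid score as a covariate the log2 differences of the 8 genes other than Ifi27l2a in control mice lay between -0.24 (Isg15) and 0.90 (Oas1a), beside 6211 of 17079 genes called (7378 without it). That score itself ran from 1.63 to 3.01 in control mice at 7 d and from 3.47 to 4.52 in those with hormone. The slope on the score in this fit came from the spread within the 8 groups. As these score ranges did not overlap, the adjusted differences extend that slope beyond values that both groups share. The part of these cells in the hormone differences was not tested.

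From 5 d to 7 d without hormone all 9 genes had lower fitted values in both antibody groups, with none called by edgeR (9.13% of all genes in control mice and 3.29% in Jag antibody mice). In control mice none of the 8 genes other than Ifi27l2a had an unadjusted p under 0.05, and DESeq2 and limma called none. Bst2 did in Jag antibody mice, at 152, 61.6, 8.04, 25.8 and 25.1 CPM at 5 d and 17.1, 13.8, 12.3, 20.0 and 16.3 CPM at 7 d, which overlap (log2 difference -1.78, SE 0.54, adjusted p = 0.0583). DESeq2 called 1 of the 9 genes there, and 1331 of all 17079 genes where edgeR called 562.

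The rest of the pathway was read from lists that hold none of the 9 genes. The list of other type I genes does hold near copies of them, such as Ifit1bl1, Ifit3b, Oas1b and Oas1g. These share 50-base stretches with Ifit1, Ifit3 or Oas1a, so that list is not fully separate from the 9 genes. Of 8 interferon ligand genes none had enough counts to be tested, 4 had no count in any library, and the highest count in 1 library was 7, for Ifng. Of 50 other type I interferon-stimulated genes, all of them tested, 40 fell and 1 rose from 15 h to 5 d in control mice, and 33 fell and none rose in Jag antibody mice (medians -1.67 and -1.77). Mx1, a dynamin-like antiviral protein, fell by 4.29 (SE 0.93, adjusted p = 0.00105) and by 3.29 (SE 0.91, adjusted p = 0.016). As with the 9 genes, the calls from 15 h to 5 d in control mice, for this list and those below, were lost in an edgeR fit of only those 10 mice, where no gene at all was called. With hormone in control mice 37 of the 50 rose and 1, Ifi27, fell (median 1.5), and in Jag antibody mice none rose and 1, again Ifi27, fell (median 0.49). The antibody by hormone interaction was called for none of the 50 (median -0.89), beside 0.00586% of all genes. It was called for no gene of the lists below either. These counts thus do not show that the hormone differences depended on the antibodies. Oasl2 rose by 2.88 with hormone in control mice (SE 0.70, adjusted p = 0.00144).

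Sensors of nucleic acid were called in the same 2 comparisons of control mice. Of 16 tested, 11 fell and 2 rose from 15 h to 5 d, and 12 rose and 1 fell with hormone. Tlr7, a receptor for single-stranded RNA in the endosome, rose with hormone by 3.30 in control mice (SE 0.60, adjusted p = 9.5e-05) and by 2.14 in Jag antibody mice (SE 0.56, adjusted p = 0.0139). Irf3, a transcription factor held in the same list, fell by 1.11 (adjusted p = 5.9e-05) and by 0.86 (SE 0.19, adjusted p = 0.00437). Over time 7 of 16 fell and 1 rose in Jag antibody mice, and with hormone 2 rose and 1 fell. From 5 d to 7 d in control mice 2 of 16 fell, beside 9.13% of all genes called in either direction. Tlr7 was among them, at -2.17 (SE 0.59, edgeR adjusted p = 0.0199), to a mean log2 CPM of 0.40. Its hormone difference in control mice is measured from that low level.

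Receptors and signal carriers changed in smaller steps. Of 15 genes 9 fell from 15 h to 5 d in control mice, and in Jag antibody mice 3 fell and 1 rose. With hormone in control mice 6 rose and 1 fell, and in Jag antibody mice none was called. Stat2 rose by 1.31 with hormone (SE 0.38, adjusted p = 0.00636) and Irf9 by 1.05 (SE 0.30, adjusted p = 0.00567). Under the Jag antibodies Ifngr1, the ligand-binding chain of the type II receptor, was higher at 5 d by 0.55 (SE 0.11, adjusted p = 0.00542), at 7 d by 0.56 (SE 0.11, adjusted p = 0.00687) and at 7 d with hormone by 0.52 (SE 0.11, adjusted p = 0.0135). Ifnar2 was lower by a log2 difference of -0.62 at 7 d (SE 0.17, adjusted p = 0.0454).

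Of 29 genes associated with type II interferon, 15 fell and 2 rose from 15 h to 5 d in control mice and 17 fell in Jag antibody mice, and 12 rose with hormone in control mice and none in Jag antibody mice. Cxcl10, a chemokine for T cells, fell from 15 h to 5 d by 3.96 in control mice (SE 0.88, adjusted p = 0.00131) with a log2 difference of -2.53 in Jag antibody mice (SE 0.84, adjusted p = 0.0395). Gbp4, a guanylate-binding protein, was higher under the Jag antibodies at 15 h by 1.80 (SE 0.37, adjusted p = 0.0223), as was Tgtp1 by 1.68 (SE 0.44, adjusted p = 0.0469). Both calls were lost in 2 other edgeR fits of that comparison: with the replicate block no gene was called higher (40 without it), and in a fit of only those 10 mice 0 of 15079 genes were called (1917 at an unadjusted p under 0.05; DESeq2 on all groups called 577). The share of each list is to be read beside that of all genes in the same comparison, given above with the 9 genes.

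**Figure D4:**
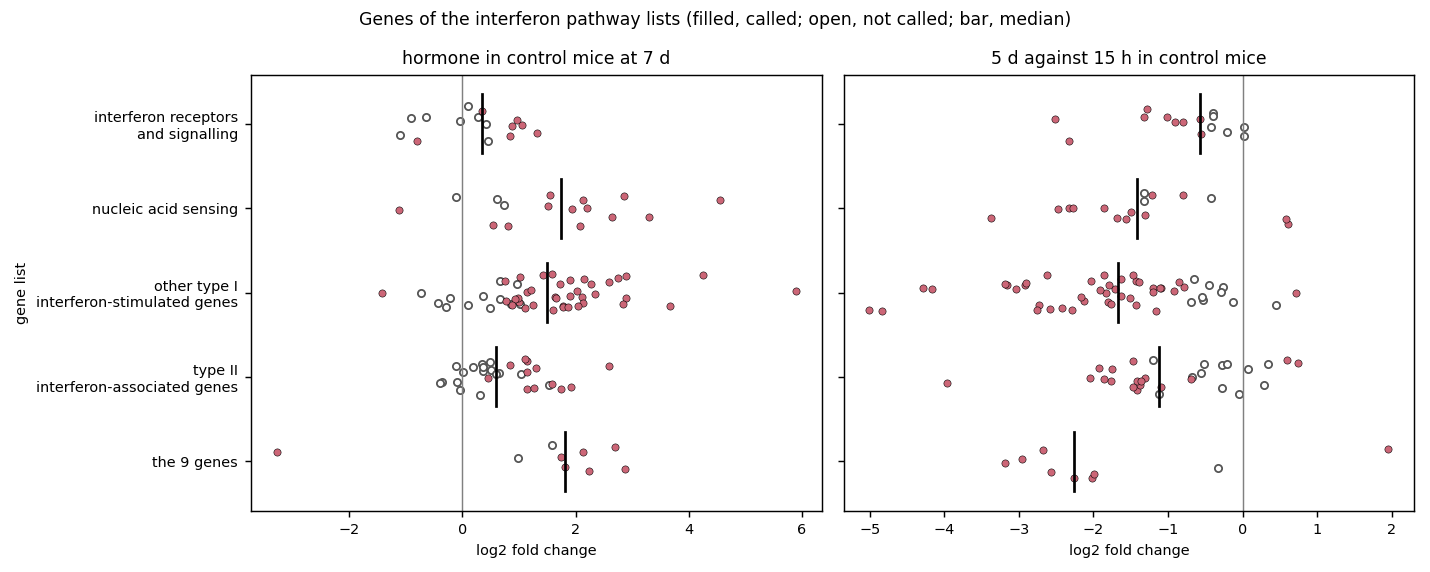
Log2 fold change of each tested gene of the 4 pathway lists, and of the 9 genes, in control mice with hormone at 7 d (left) and from 15 h to 5 d (right); filled points passed an adjusted p of 0.05 (edgeR), open points did not, and bars are medians. Most of the 50 other type I genes lie above 0 with hormone (37 called higher) and below 0 from 15 h to 5 d (40 called lower).

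Leaving aside Ifi27l2a, the group means of the 8 genes were highest at 15 h for 6 genes in Jag antibody mice (Isg15, Ifit1, Ifit3, Irf7, Bst2 and Usp18) and for 2 in control mice (Oas1a and Rsad2). Neighbouring groups in that order overlapped for every one of the 8. For Ifi27l2a the order of the group means of log2 CPM was Jag antibody 5 d (10.1 ± 0.99, SD, n = 5), control 5 d (10.0 ± 1.14), Jag antibody 7 d (10.0 ± 0.26), control 7 d (9.67 ± 0.95), Jag antibody 15 h (9.41 ± 0.43), control 15 h (8.44 ± 0.08), control 7 d with hormone (6.47 ± 0.84) and Jag antibody 7 d with hormone (5.93 ± 0.84). The first 5 each overlapped their neighbours in that series, control 15 h was apart from both its neighbours, and the 2 hormone groups overlapped.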

How the data were processed

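Brown adipose tissue RNA of 40 mice was read as single-end 50-base reads, per the labels' protocols. The authors deposited raw counts per Ensembl gene and a companion FPKM table. The submitters' processing notes name GSNAP and limma; the counting program, genome build, strand setting and versions are not given in the sources used here. Groups came from the labels. Symbols matched 52403 of 52636 identifiers; coordinates and gene lengths are those of GENCODE M21 (GRCm38), as is GC content. No 2 libraries of a group agreed within sampling noise (lowest chi-square per degree of freedom 17.86 over 80 pairs).

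The test on counts was edgeR 4.0.16, run in R 4.3.3 (filterByExpr, TMM, 1 quasi-likelihood model over 40 libraries, Benjamini-Hochberg over 17079 genes at 0.05). A gene past that threshold is called, and rose or fell is said only of such genes. Log2 CPM uses a prior count of 2. The script was checked on simulated counts. P-values set a difference between groups against the spread between mice, which the main fit estimates over all 8 groups. In total 11 comparisons were made. The members and lists were chosen with earlier results of these data known, and by rule all 9 members are named, as are their near copies, the 5 genes most like Ifi27l2a by either measure, and from up to 4 called genes per list and comparison with the largest differences. The hormone value of Irf3 in control mice lies outside that rule and was chosen after its values were seen. Alternatives were DESeq2 1.42.0, RLE scaling, no filter, the compared groups only, muscle or myeloid covariates, length and GC offsets, a replicate block alone or with length and GC offsets, limma 3.58.1 on log2(FPKM + 1) or log2(FPKM + 0.1), and leaving out each mouse. A gene that the naming rule selected is not reported here.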

Additional observations from a re-analysis of the deposited data

Results flagged for a closer look

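Within groups of 5 mice, 1 mouse lay far from the other 4 in 4 of the 72 gene and group combinations, by Dixon's gap against a critical ratio of 0.71. Chance gives such a gap in about 1 in 20 groups. Mouse 7 of the Jag antibody mice with hormone was high in Isg15, at 4.05 log2 CPM (16.4 CPM) against 1.93 (3.70 CPM) for the next mouse, and in Usp18, at 3.9 against 2.24. Mouse 9 of the Jag antibody mice at 7 d was high in Usp18, at 3.95 log2 CPM against 2.19. Mouse 4 of the control mice at 7 d was low in Rsad2, at 3.73 log2 CPM against 4.27. Its Ifi27l2a level, 2175 CPM, was the highest of that group. The library of this mouse had the lowest total (12217623 counts) and the lowest TMM factor (0.647) of all libraries. It also had the most negative slope of log2 CPM on gene length (-0.54). Rsad2 has 4335 exonic bases and Ifi27l2a has 463. The part of this slope in these levels was not tested.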

How the results depend on the processing

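The results were recomputed under 11 alternative settings and 40 fits that each left out 1 mouse. Of the 9 genes, 7 were called with hormone in control mice; 4 were called by limma on log2(FPKM + 1), by limma on log2(FPKM + 0.1), without the low-count filter and with the replicate block, and 1 with the myeloid score as a covariate, and 9 with length and GC offsets, with these offsets and the replicate block, and in a fit of only the groups compared. Of all genes 7378 of 17079 were called in that comparison, against 7093, 7525, 6523 of 33357, 7424, 6211, 6724, 6774 and 6920 of 15163 in the order of these settings, so nothing particular to the 9 is read from their counts. From 15 h to 5 d in control mice 8 were called, but 1 with the myeloid score and 0 in a fit of only the groups compared, where 8 of 9 had an unadjusted p under 0.05 and edgeR called 0 of all 15305 genes (5270 at an unadjusted p under 0.05). In Jag antibody mice 7 were called over that step and 4 with the myeloid score or without the filter. From 5 d to 7 d in Jag antibody mice 0 were called, but 1 by DESeq2, with length and GC offsets or with the myeloid score. Irf7 from 15 h to 5 d in control mice turned from -2.02 to 0.0132 with the myeloid score. The causes were not tested. Without 1 mouse the counts ran from 4 to 7 for hormone in control mice, 5 to 8 and 4 to 8 for 15 h to 5 d in control and Jag antibody mice, and 0 to 1 for 5 d to 7 d in Jag antibody mice; they were unchanged at 0 for the 4 antibody comparisons, the interaction and 5 d to 7 d in control mice. Hormone in Jag antibody mice called 1 gene throughout, Ifi27l2a, on which the set was selected. Of 2169 values of single genes, 2055 kept their side of the threshold (59 of these changed sign with no call either way), 98 lost a call, 15 gained one and 1 reversed.

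With the mouse number of the labels as a replicate block the counts were 7 and 5 for 15 h to 5 d in control and Jag antibody mice and 1 for hormone in Jag antibody mice. Same-numbered mice are different animals, and their deviations from group means correlated at a mean of 0.08 to 0.19 over the 6 pairs of groups (lowest pair -0.36), so the numbers were not taken to pair them. A mouse correlated best with its own number in 1, 1, 1, 4, 2 and 2 of 5 cases. The lowest count of any of the 9 genes in a library was 10 (Oas1a), and the precision is limited by 5 mice a group.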
